A study of Mus musculus with 7 samples.

Results

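The sites described here were chosen by their accessibility values: they are the autosomal ATAC-seq sites with a concentration of at least 4.5 in Smad2/3 DKO EpiLCs that lay 1.5 or more above the concentration in WT EpiLCs. The concentration is the authors' log2 mean of normalised reads at a site over the samples of a genotype, so 4.5 stands for 22.6 reads and a difference of 1.5 for a 2.83-fold difference. The rule selected 215 of the 73736 autosomal sites, and 75880 sites are listed in all. Because both concentrations were used for the choice, their difference is given as a description and is not tested.

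EpiLCs are epiblast-like cells, here obtained from ESCs in 48 h with 20 ng/ml activin A and 12 ng/ml Fgf2, and collected on day 2. WT cells were the CCE clone, of 129/Sv//Ev background, and Smad2/3 DKO cells were clone KT15.1F6, made from homozygous Smad2 tm1Rob ESCs by deleting the Smad3 promoter and first exon with the Cas9 nickase. Each genotype had 3 differentiations of 1 clone, so clone and genotype cannot be told apart, and 1 library of Tn5-treated genomic DNA from WT EpiLCs served as the control for calling sites. Both genotypes received activin A. The values used are the authors' means per genotype. The table has no column per library, so the read depth and the SD among differentiations could not be computed, and no site value is given with an error. Of 7 EpiLC marker genes, 5 had a listed site within 1 kb of a TSS, among them Pou5f1, which encodes Oct4 (WT 7.71, DKO 7.72), and Fgf5 (6.63 and 6.86). Otx2 and Pou3f1 had none within 1 kb. The 3 trophoblast and the 3 primitive endoderm markers examined each had a promoter site too, so an open promoter does not separate these cell types.

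In ATAC-seq the Tn5 transposase cuts DNA that nucleosomes leave free, and reads collect at promoters and distal elements such as enhancers. Smad2 and Smad3 carry the Nodal and activin signal from the receptor to the nucleus, where they bind DNA with partners such as FoxH1 and act with Oct4-bound elements of the epiblast. The comparison asks where chromatin was more open in cells that lack both factors.

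The 4 sites with the largest differences were rich in repeats. Of the 21 sites with a difference of 3 or more, 12 were repeat over at least 50% of their length. The central 200 bases of the 4 sites with the largest differences are shown from the GRCm38 (mm10) reference genome of RefSeq, plus strand, because they carry this feature. Each is named by the gene with the nearest TSS, and capitals mark bases that the genome file soft-masks as repeats.
Cps1, chr1:67442150-67442349: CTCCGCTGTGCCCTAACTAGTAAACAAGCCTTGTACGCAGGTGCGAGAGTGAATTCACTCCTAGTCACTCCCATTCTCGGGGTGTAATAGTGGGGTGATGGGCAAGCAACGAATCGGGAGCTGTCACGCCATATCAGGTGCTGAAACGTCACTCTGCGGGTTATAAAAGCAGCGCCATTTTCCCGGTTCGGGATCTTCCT
Brinp3, chr1:147591860-147592059: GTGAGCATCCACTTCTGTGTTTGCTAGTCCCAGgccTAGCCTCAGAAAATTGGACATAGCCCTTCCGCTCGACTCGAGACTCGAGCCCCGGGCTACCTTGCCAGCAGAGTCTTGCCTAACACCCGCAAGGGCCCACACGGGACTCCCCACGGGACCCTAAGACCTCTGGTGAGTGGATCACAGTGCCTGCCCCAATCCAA
Med10, chr13:69882760-69882959: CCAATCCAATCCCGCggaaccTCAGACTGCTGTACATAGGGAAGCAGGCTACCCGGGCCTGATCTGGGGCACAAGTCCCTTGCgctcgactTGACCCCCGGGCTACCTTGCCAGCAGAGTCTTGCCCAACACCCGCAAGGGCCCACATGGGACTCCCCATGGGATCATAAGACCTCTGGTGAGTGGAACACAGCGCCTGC
Nell1os, chr7:50451510-50451709: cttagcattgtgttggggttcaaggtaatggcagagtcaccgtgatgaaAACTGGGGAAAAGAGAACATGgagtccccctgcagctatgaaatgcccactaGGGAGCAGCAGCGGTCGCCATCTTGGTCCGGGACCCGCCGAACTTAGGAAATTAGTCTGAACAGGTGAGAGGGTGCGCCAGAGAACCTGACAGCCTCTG
Of the 200 bases shown, 200 are soft-masked in the site near Cps1, 197 near Brinp3, 186 near Med10 and 120 near Nell1os. The sites near Brinp3 and Med10, on different chromosomes, share 134 stretches of 25 bases on either strand. These are reference sequences and were not read from the clones.

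Promoter sites were a minority, and 4 are shown for contrast, again as the central 200 bases with capitals marking CG dinucleotides.
Peg13, chr15:72810280-72810479: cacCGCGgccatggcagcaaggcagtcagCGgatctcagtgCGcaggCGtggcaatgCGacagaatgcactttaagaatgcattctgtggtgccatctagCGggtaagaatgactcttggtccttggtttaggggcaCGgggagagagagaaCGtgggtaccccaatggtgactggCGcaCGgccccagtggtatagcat
Mir292b, chr7:3219265-3219464: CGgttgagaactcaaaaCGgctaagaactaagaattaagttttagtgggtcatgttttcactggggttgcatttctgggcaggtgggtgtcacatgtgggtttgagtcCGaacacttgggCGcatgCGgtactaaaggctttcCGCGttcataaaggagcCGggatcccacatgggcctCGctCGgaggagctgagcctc
Kremen1, chr11:5261555-5261754: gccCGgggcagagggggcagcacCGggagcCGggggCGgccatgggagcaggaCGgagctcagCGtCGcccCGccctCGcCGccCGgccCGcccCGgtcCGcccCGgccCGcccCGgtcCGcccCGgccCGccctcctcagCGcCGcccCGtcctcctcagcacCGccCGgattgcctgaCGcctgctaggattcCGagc
Rbm44, chr1:91145015-91145214: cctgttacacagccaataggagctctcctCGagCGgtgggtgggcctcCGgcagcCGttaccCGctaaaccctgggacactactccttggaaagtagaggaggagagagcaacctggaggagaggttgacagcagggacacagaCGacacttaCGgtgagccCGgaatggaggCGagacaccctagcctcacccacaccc
The Kremen1 promoter holds 27 CG dinucleotides in these 200 bases, against 11 at Peg13, 10 at Mir292b and 9 at Rbm44.

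Some distal sites hold short strings resembling both Tead and Sox binding motifs. From the shares given below, neither string can be called particular to the gained sites. The 3 such sites with the highest DKO concentrations are shown as 300 bases around the midpoint, with capitals marking GGAATG (Tead) and CATTGT (Sox) on either strand.
Gm16070, chr1:17931990-17932289: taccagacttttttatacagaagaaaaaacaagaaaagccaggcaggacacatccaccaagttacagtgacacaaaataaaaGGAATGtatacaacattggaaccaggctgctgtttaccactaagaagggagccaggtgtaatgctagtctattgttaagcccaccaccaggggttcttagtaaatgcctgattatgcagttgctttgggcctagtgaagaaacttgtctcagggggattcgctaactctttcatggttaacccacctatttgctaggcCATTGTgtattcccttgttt
Smarcad1, chr6:65024855-65025154: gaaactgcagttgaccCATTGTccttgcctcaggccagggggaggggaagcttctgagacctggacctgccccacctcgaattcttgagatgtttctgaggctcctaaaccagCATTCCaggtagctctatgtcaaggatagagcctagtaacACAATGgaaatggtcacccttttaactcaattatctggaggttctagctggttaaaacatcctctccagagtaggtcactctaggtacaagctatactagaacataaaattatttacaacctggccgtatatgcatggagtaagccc
3110040M04Rik, chr1:151235610-151235909: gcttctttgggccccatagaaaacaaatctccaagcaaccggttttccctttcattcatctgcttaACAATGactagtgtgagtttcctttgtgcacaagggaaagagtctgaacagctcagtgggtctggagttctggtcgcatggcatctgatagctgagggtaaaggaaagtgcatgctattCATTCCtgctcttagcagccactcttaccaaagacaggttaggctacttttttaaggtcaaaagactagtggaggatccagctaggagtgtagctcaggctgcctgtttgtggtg
The site near Smarcad1 holds 1 Tead and 2 Sox strings, and the sites near Gm16070 and 3110040M04Rik hold 1 of each. The Gm16070 site is 61.6% soft-masked as repeats and shares 20 stretches of 25 bases with the gained site near G6pd2.

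Of the 46167 autosomal sites with a DKO concentration of at least 4.5, 0.466% met the rule. The mirrored rule, a WT concentration of at least 4.5 and a WT excess of 1.5 or more, selected 760 of 48916 sites, or 1.55%. These 760 sites are called strongly lost below, and the 45952 other autosomal sites with a DKO concentration of at least 4.5 serve as the comparison. Of the strongly lost sites, 58 lay between 70 and 80 Mb of chromosome 6, where the median difference of all listed sites was -1.24. Values of strongly lost sites below include them unless stated otherwise. On chromosomes X and Y, which the rule leaves out, 0 of the 2144 listed sites met both cut-offs.

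Most strongly gained sites were weak sites. Their DKO concentration had a median of 4.92, with quartiles of 4.73 and 5.70 and a highest value of 7.45, whereas the comparison sites had a median of 5.74. The WT concentration had a median of 3.10 and ranged from -0.09, the lowest WT value listed, to 5.82. On the linear scale the medians correspond to 30.3 reads in DKO and 8.57 in WT. Of the 215 sites, 195 had a WT concentration of at least 2, and 1 was at the lowest listed value. At the 135 sites with a difference under 2, both cut-offs together already require a WT concentration above 2. Both concentrations were used for the choice, so these levels and the contrast with the comparison sites only describe the chosen sites.

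**Figure D1:**
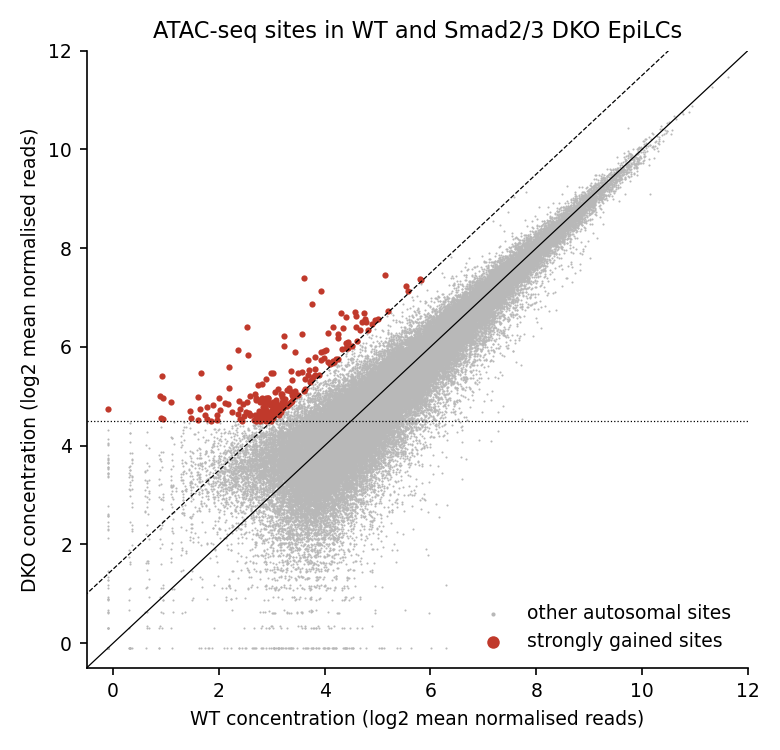
Each point is an autosomal site, with its WT concentration on the x axis and its DKO concentration on the y axis, both as log2 mean normalised reads. Strongly gained sites are red, the solid line marks equal values, the dashed line a difference of 1.5 and the dotted line a DKO concentration of 4.5. The 215 red points lie on or above both the dashed and the dotted line, with a median DKO concentration of 4.92.

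The difference had a median of 1.83, a 3.56-fold difference, and quartiles of 1.62 and 2.21. It lay between 1.5 and 2 at 135 sites, between 2 and 3 at 59, between 3 and 4 at 17 and above 4 at 4. Over all autosomal sites the median difference was -0.08, with quartiles of -0.39 and 0.20. Just inside the rule were sites near Gm47415, Egf and Wac, each with a difference of 1.5, and just outside it were sites near Rbpj and Dctd, each at 1.49, and near Optn at 1.48. On the other cut-off, sites near Ldhb, Cntnap2 and Tor3a entered with a DKO concentration of 4.5, and sites near Tfrc and Zfp954 at 4.49 and near Trim8 at 4.48 did not. A further 528 sites had a difference of at least 1.5 but a DKO concentration under 4.5.

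The 12 sites with the largest differences lay on 5 chromosomes. The intergenic site chr1:67442020-67442480, 319223 bp downstream of the TSS of Cps1, a urea cycle enzyme gene, had the lowest WT value listed, -0.09, and 4.75 in DKO, a difference of 4.84 or 28.6-fold. The site chr1:147591790-147592130, over 1 Mb from the Brinp3 TSS, was listed at 0.93 in WT and 5.41 in DKO. The site chr13:69882500-69883220, 72978 bp from the TSS of Med10, a Mediator subunit gene, was listed at 0.89 and 5.01. All 3 were mostly repeat, with 81.1%, 96.8% and 95.4% of their bases soft-masked.

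The fourth, chr7:50451450-50451770 in intron 13 of Nell1, was listed at 0.94 in WT and 4.96 in DKO. At chr13:74787760-74788250, in intron 2 of Cast, which encodes the calpain inhibitor calpastatin, the values were 3.61 and 7.40. This site combined a large difference with a high level, second among all 215 by DKO concentration. Of the others, the sites near Gm5724, Slco1a4, 5330439B14Rik and Abcc9 belong to 1 stretch of chromosome 6 described below, with differences of 3.87, 3.81, 3.61 and 3.58. The remaining ones lay near Niban1 (3.79), Gm9595 (3.67) and Slc4a7 (3.40).

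**Figure D2:**
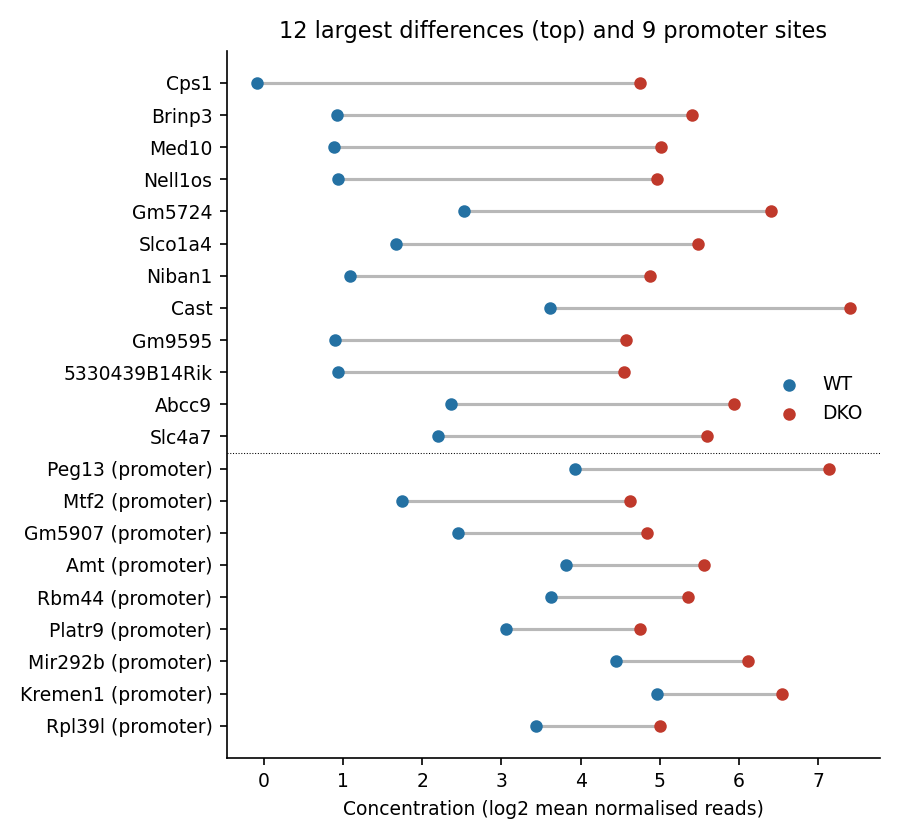
Each row is 1 site named by its nearest gene, with the authors' mean concentration in WT (blue) and DKO (red) on the x axis in log2 mean normalised reads. The upper 12 rows are the sites with the largest differences and the lower 9 are the promoter sites. WT values of the upper rows run from -0.09 at Cps1 to 3.61 at Cast, whereas 8 of the 9 promoter sites differ by less than 3.

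Of the 5 sites with the highest DKO concentrations, 4 had a WT concentration above 5, the exception being the Cast site at 3.61. The site in intron 1 of Pgpep1l, chr7:68239180-68240540, had 5.14 in WT and 7.45 in DKO. After Cast in this order came the sites nearest to Mir6238 (5.80 and 7.38), Gm16070 (5.82 and 7.35) and Olfr147 (5.54 and 7.24). The Olfr147 site lay 5979 bp from that olfactory receptor gene's TSS, and the Mir6238 site 755149 bp from its TSS.

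The strongly gained sites were predominantly distal. Within 1 kb of a TSS lay 9 of 215, or 4.19% (exact 95% interval 1.93 to 7.80), against 28.0% of the comparison sites. A share of 87.4% (82.3 to 91.6) lay over 5 kb away, against 64.2%, and the median distance was 36425 bp against 18048 bp. By position, 59.1% were intergenic, 33.5% intronic and 3.26% exonic, where 41.6%, 26.7% and 3.71% of the comparison sites were. These intervals cover the counting of sites only, and sites are not replicates.

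The strongly lost sites, selected by the mirrored rule, were as rarely promoters (3.42%), but lay farther out. Their median distance was 73107 bp, and 49.9% of them lay 50 to 500 kb from a TSS against 34.4% of the gained sites. In contrast, the 5 to 50 kb class held 46.5% of gained (39.7 to 53.4) and 30.0% of lost sites (26.8 to 33.4). The 14 gained sites over 500 kb from any TSS made up 6.51%.

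**Figure D3:**
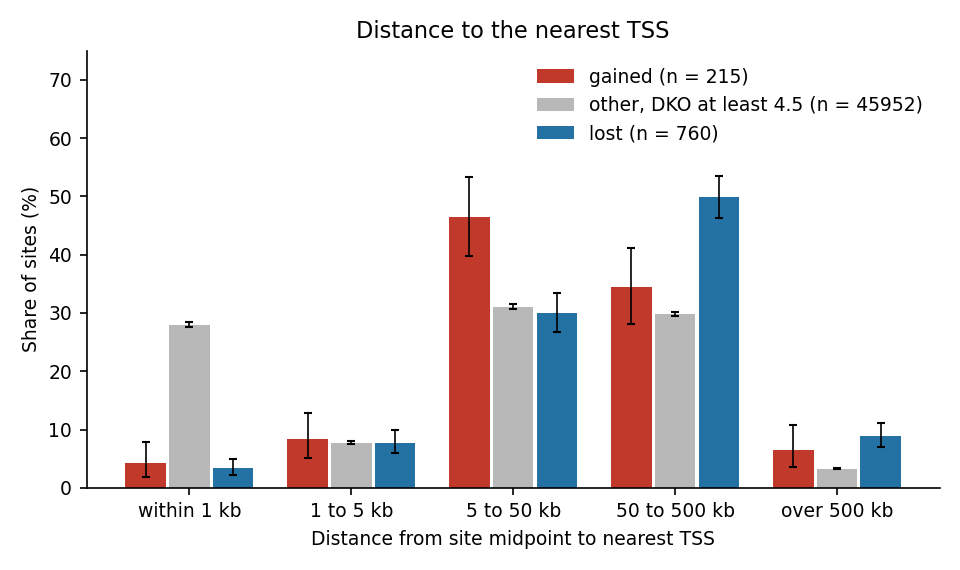
Bars give the share of sites (y axis, percent) in 5 classes of distance from the site's midpoint to the nearest TSS, for gained, comparison and lost sites, with exact 95% intervals. Gained sites peak at 5 to 50 kb with 46.5% and have 4.19% within 1 kb, where the comparison sites have 28.0%.

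The 9 promoter sites belonged to genes of different kinds. The largest difference was at Peg13, an imprinted non-coding RNA gene expressed from the paternal allele, whose TSS lies in intron 16 of Trappc9. The site chr15:72809840-72810920 was centred 56 bp upstream of that TSS and was listed at 3.93 in WT and 7.14 in DKO, a difference of 3.21. The other 5 listed sites with Peg13 as nearest gene differed by -1.67 to 0.09, so none of them met the rule.

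At Kremen1, a Wnt antagonist that acts as a receptor for Dickkopf proteins, the promoter site chr11:5261290-5262020 had 4.96 in WT and 6.54 in DKO. A second site in intron 2 of the gene, chr11:5239660-5240500, had 3.44 and 5.89. No other listed site had Kremen1 as its nearest gene, so both of its sites were among the 215.

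The site chr7:3218940-3219790 was centred 106 bp upstream of Mir292b, within exon 1 of D7Ertd143e, the host transcript of a microRNA cluster that is highly expressed in ESCs. Its concentration was 4.45 in WT and 6.11 in DKO, and the 12 other listed sites within 50 kb had a median difference of 0.55. At Platr9, a pluripotency-associated non-coding transcript, the promoter site had 3.06 and 4.75.

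Rbm44, which encodes an RNA-binding protein of germ cells, had a promoter site at 3.62 in WT and 5.35 in DKO. Rpl39l, a paralogue of a ribosomal protein gene, was listed at 3.43 and 5.00. At both genes the gained site was the only site listed with that nearest gene. The same held for Amt, an enzyme of the glycine cleavage system, at 3.81 and 5.56.

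The remaining promoter sites were low in WT. The site at Mtf2, a Polycomb-associated protein gene, was centred 995 bp upstream of a TSS, inside intron 2 of a longer Mtf2 transcript, and was listed at 1.74 and 4.62. Gm5907 had 2.45 and 4.84.

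A further 18 sites lay 1 to 5 kb from a TSS. Among these, both sites at Neat1, the non-coding RNA that organises paraspeckles, lay inside the transcript. The site chr19:5842290-5843490 had 4.74 in WT and 6.68 in DKO, and chr19:5841530-5841760 had 2.90 and 4.73. The other 4 listed sites nearest to Neat1 also lay above 0, with differences of 0.08 to 0.86. Gas5, a host of small nucleolar RNAs, had a gained site in intron 4 (3.00 and 4.66), and Hspb1, a small heat shock protein gene, had 1 in intron 1 (2.91 and 4.53).

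Of the 215 sites, 86 had their midpoint in a gene body, and for 56 of these the host gene was also the gene with the nearest TSS. Introns held 76 midpoints, 22 of them intron 1. The site in intron 2 of Tead1, a DNA-binding partner of Yap, was listed at 1.64 and 4.75. Sites in Rarb intron 1 (1.61 and 4.52), Foxp1 intron 4 (3.23 and 6.01) and Tcf4 intron 5 (1.78 and 4.55) had differences of 2.91, 2.78 and 2.77. These 3 genes were picked after their values were seen.

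The nearest genes were scattered. The 215 sites had 205 different nearest genes, and 9 genes were nearest to 2 or more. Only Cox7c, a cytochrome c oxidase subunit gene, was nearest to 3. These lay at 51195, 53980 and 151605 bp from its TSS, with differences of 2.38, 1.83 and 3.26, while the other 41 listed sites nearest to Cox7c had a median difference of 0.09. Zfp462, a zinc finger gene linked to pluripotency, had 1 gained site in intron 1 (2.43 and 4.51) and 1 upstream (3.25 and 4.95), and its other 13 sites had a median difference of 0.42.

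Read against 14 gene lists, covering pluripotency, extra-embryonic lineages, Bmp, Wnt and Nodal pathways, mesoderm, neural genes, imprinted genes and adhesion, 7 sites had a listed gene as the nearest. That is 3.26% of the sites, against 3.69% of all autosomal sites. On 9 lists no member was found, among them Bmp targets, trophoblast genes, primitive and visceral endoderm genes, and Nodal pathway genes. These 4 lists held 0.220%, 0.167%, 0.186% and 0.159% of all autosomal sites, so with 215 sites nothing can be read from their absence.

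The imprinted list had 3 sites, 1.40% against 0.385% of autosomal sites. Besides Peg13, these were in intron 1 of Grb10, an adaptor that restrains growth factor signalling (2.97 in WT and 4.58 in DKO), and in intron 2 of Ppp1r9a (3.68 and 5.44). With 3 sites, nothing particular to the list can be read from this. The other 4 list genes had 1 site each. Nr5a2, a nuclear receptor of the naive pluripotency network, had a site 465527 bp upstream (2.58 and 5.01), and Foxd3, a primed pluripotency factor, had 1 86769 bp upstream (2.39 and 4.75). The Cdh7 site, 632850 bp from that cadherin gene's TSS, had 2.82 and 5.24, and Tead1 is given above.

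The sites were unevenly spread over the autosomes. Chromosome 1 held 35 of them, 16.3% of the 215 against 7.97% of listed autosomal sites, and chromosomes 6 and 13 held 20 each. Chromosome 2, with slightly more listed sites than chromosome 1, held 5. Relative to the sites with a DKO concentration of at least 4.5, the share was 0.974% on chromosome 1, 0.835% on 13, 0.800% on 14, 0.760% on 6 and 0.132% on 2. The median difference of all sites of a chromosome stayed between -0.17 and -0.01, so no chromosome was shifted upward as a whole.

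Few gained sites lay beside another gained site, although more than their share of all autosomal sites. When sites with midpoints within 50 kb were joined, 5 pairs resulted and 205 sites stood alone, with no locus of 3 or more. The 10 paired sites compare with 778 other listed sites within 50 kb of a gained site. That is a larger share than the 0.292% of autosomal sites that were gained. The same count was not made for other sets of sites. The pairs were the 2 Kremen1 sites, the 2 Neat1 sites, 2 of the Cox7c sites (2785 bp between midpoints), 2 sites upstream of Slco1b2 and a pair at chr17:3516300-3565760 near Cldn20 and 1700102H20Rik. The Slco1b2 pair was listed at 4.57 and 6.70 at 1 site and at 1.61 and 4.99 at the other, in WT and DKO.

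Among the other listed sites around the gained sites, the median was close to that elsewhere, but larger differences were more common. The 778 other sites within 50 kb had a median difference of 0.03, against -0.08 for the sites farther away, and 12.7% against 9.32% differed by at least 1 in either direction. Of these neighbours, 14.8% were at least 1.5-fold higher in DKO against 8.22%. Of the 195 gained sites with such a neighbour, 75 had at least 1 that was 1.5-fold higher, a count not made around other sites. Strongly lost sites were also found there, as 2.06% of sites within 50 kb (16 sites) against 1.02% beyond. Within 500 kb the strongly lost share was 1.04% against 1.03% beyond, while 11.1% against 8.02% were at least 1.5-fold higher in DKO.

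On a scale of 10 Mb, 120 of 257 windows with a listed site held a gained site, and 10 windows held 4 or more. Those 10, picked by their gained sites, held 25.6% of gained, 7.11% of strongly lost and 4.65% of listed autosomal sites. The fullest was 140 to 150 Mb of chromosome 6, with 10 gained and 12 lost sites of 529. On chromosome 1, the windows of 130 to 140, 140 to 150, 150 to 160 and 160 to 170 Mb held 4, 6, 5 and 6 gained sites and 11, 4, 8 and 10 lost sites. Their listed sites numbered 437, 233, 418 and 482.

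Joining sites within 1 Mb, a distance chosen after the data were seen, gave 8 loci of 3 or more. The largest, with 8 gained sites over 1.15 Mb, was chr6:141577180-142723220. It runs from Slco1b2 through Gm5724, Slco1a4 and Slco1a5, which belong to a family of organic anion transporters, to Ldhb, a lactate dehydrogenase gene, and Abcc9, an ABC transporter gene that encodes a potassium channel subunit. The gained sites differed by 2.13, 3.38, 3.87, 3.81, 1.80, 2.64, 3.61 and 3.58 in order along the chromosome. They made up 11.6% of the 69 listed sites there.

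The same stretch also held 5 strongly lost sites. The most extreme, near Gys2, the liver glycogen synthase gene, had 5.07 in WT and the lowest DKO value listed, -0.10. Another 3 lay upstream of Ldhb, with differences of -1.67, -1.53 and -1.96, and 1 near Slco1a1 had -1.62. Over the 69 sites, 27 were higher and 42 lower in DKO, and the median difference was -0.16. The stretch was picked for its 8 gained sites, so the spread is given over the 61 others. Their interquartile range was 1.19 against 0.58 over all autosomal sites outside the 215, and 26.2% of them differed by at least 1 in either direction against 9.36%. The stretch was therefore not higher as a block, and sites of both directions alternated within it.

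**Figure D4:**
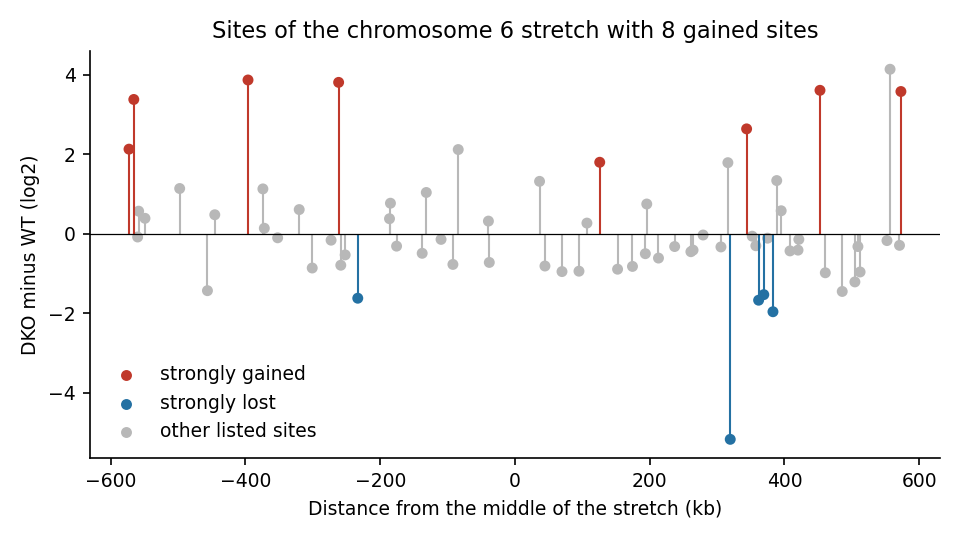
Vertical lines give the DKO minus WT difference (y axis, log2) of the 69 listed sites of the chromosome 6 stretch, placed by their distance from its middle (x axis, kb). The 8 strongly gained sites (red) and the 5 strongly lost sites (blue) are interspersed among sites near 0 and a few grey sites with large differences that did not reach the concentration of 4.5.

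The other 7 loci had 3 gained sites each. On chromosome 1 these were the Map2, Kansl1l and Cps1 sites over 1.16 Mb, the Csrp1, 9230116N13Rik and Nr5a2 sites over 1.69 Mb, the Brinp3 and Pla2g4a sites over 0.93 Mb, and the Gas5, Tex50 and Prdx6 sites over 0.27 Mb. In the Brinp3 and Pla2g4a locus 12 sites were listed, among them a gained site (2.01 in WT, 4.97 in DKO) next to a lost one (7.72 and 5.63), both over 1 Mb from the Pla2g4a TSS. The others were Vwc2, Spata48 and Grb10 on chromosome 11, the 3 Cox7c sites on 13, and Cadps, Sntn and Slc4a7 on 14. Lost sites were listed within 4 of these 7 loci.

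In base composition, the gained sites were narrower and poorer in CG dinucleotides. Their median width was 350 bp against 530 bp, and the ratio of observed to expected CG was 0.19 against 0.33. Among sites over 5 kb from a TSS the ratios were 0.18 and 0.23. GC content was 49.8% against 51.5%, but 49.6% against 48.5% over 5 kb from a TSS, where the direction turned. The strongly lost sites were also narrow and poor in CG dinucleotides, with medians of 380 bp and 0.14.

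They were also richer in repeats. The median share of soft-masked bases was 17.9% against 10.2%, and 52 sites, or 24.2% (18.6 to 30.5), were masked over at least 50% of their length, against 10.8% of comparison sites. Restricted to sites over 5 kb from a TSS, the shares were 26.1% and 15.8%. The share was 17.0% for differences between 1.5 and 2, 28.8% between 2 and 3, and 57.1% (12 of 21) for 3 or more. For the strongly lost sites it was 12.3%, 17.7% and 34.4% in the same classes of size.

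**Figure D5:**
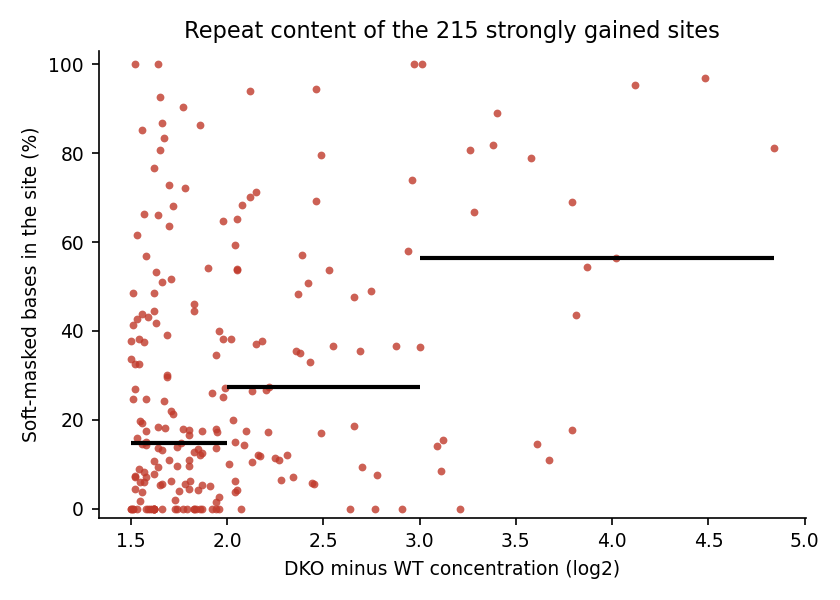
Each point is 1 of the 215 sites, with its DKO minus WT difference (x axis, log2) and the share of its bases that are soft-masked as repeats (y axis, percent). Black bars mark the medians of sites with differences of 1.5 to 2 (14.8%), 2 to 3 (27.4%) and 3 or more (56.4%).

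Repeat copies were shared between sites. With at least 5 common stretches of 25 bases taken as a link, 35 of the 215 sites (16.3%) fell into 10 groups, and the median masked share of these sites was 68.1%. The largest group, of 8, joined both Brinp3 sites and the Med10 site with sites near Gm29514, Kifap3, S100a7l2, Steap1 and Mir6238, on chromosomes 1, 3, 5, 7 and 13. A second, of 7, included the sites near Cdh7 and 2210408I21Rik and 1 of the Slco1b2 sites. A further group, of 5, included those near Nell1os, Slc4a7, Arrdc3 and Pla2g4a. Among the 760 strongly lost sites, 11.1% were linked in the same way. Each set was searched only within itself, and a larger set offers more partners, so these shares are not like for like. The authors discarded reads that did not map uniquely, and the part that read mapping in repeats has in these differences was not tested.

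Short strings of transcription factor motifs were counted in 300 bp around each midpoint, on both strands. GGAATG, the core of the Tead motif, was found in 27.4% of gained sites (21.6 to 33.9), against 17.2% of comparison sites and 20.5% of those over 5 kb from a TSS. CATTGT, the core of the Sox motif, was found in 23.3% (17.8 to 29.5) against 12.5% and 15.7%. Both were also frequent at the strongly lost sites, with 22.2% and 19.9%. Neither string can be called particular to the gained sites from these shares. Both strings together were found in 12 gained sites, 5.58% against 2.51%, including the 3 shown above. Over 5 kb from a TSS the shares were 5.85% and 3.41%.

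Strings of the Smad2/3 pathway were found in few gained sites, and their shares did not all lie on the same side of the comparison. TGTGGATT, for the Smad partner FoxH1, was present in 1.40% of gained and 5.00% of lost sites, against 0.999% of comparison sites. The Smad palindrome GTCTAGAC was in 0.465% of gained (1 site), 0.526% of lost and 0.220% of comparison sites. The GC-rich Smad element GGCGCC was in 4.19% of gained, 2.24% of lost and 11.8% of comparison sites. Among sites over 5 kb from a TSS, GGCGCC was in 4.26% of gained and 4.74% of comparison sites. TGCCGC, part of the Zfp57 motif of imprinted regions, was in 5.58% against 12.6%, and in 4.79% against 6.63% over 5 kb away. The POU octamer ATGCAAAT was found in 4.19% of gained, 6.84% of lost and 2.92% of comparison sites. The Otx2 string GGATTA was found in 11.2% of gained, 13.7% of lost and 8.03% of comparison sites. Over 5 kb from a TSS, gained and comparison shares were 4.79% and 3.77% for the octamer and 11.2% and 9.77% for the Otx2 string. A match says only that the letters are present, and 17 strings were searched.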

How the data were processed

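ATAC-seq was performed on WT and Smad2/3 DKO EpiLCs (3 differentiations each) with a Tn5-treated genomic DNA control. The authors used bowtie2 and the mm10 genome for alignment, kept uniquely mapped reads outside a blacklist, removed duplicates with Samtools, called sites with DANPOS2 and compared them with DiffBind. Versions and normalization are not given in the sources used here. The deposited log2 concentrations, 1 mean per genotype computed by the authors, were used. The columns with the authors' overall mean, fold change, p-value and FDR were not.

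The difference is DKO minus WT concentration. Sites were placed on 45756 RefSeq transcripts of GRCm38.p6 by their midpoints, and a promoter is within 1 kb of a TSS. The nearest gene has the nearest TSS. With pooled means no test was possible, and shares carry Clopper-Pearson intervals. Sites named were mainly those with the 12 largest differences, the 5 highest DKO concentrations, promoter and list genes, loci, and sites at the cut-offs. Sites sharing sequence or holding both strings were also named. The Hspb1, Zfp462, Rarb, Foxp1 and Tcf4 sites were picked outside these rules. Windows of 10 Mb, 1 Mb chains and shared stretches of 25 bases were added after the data were seen. Members and lists were chosen with earlier results of these data known. The TSS search, the rule and the string search were tested on simulated data. Python 3.11.15, numpy 2.4.6, pandas 2.3.3 and scipy 1.17.1 were used.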

Additional observations from a re-analysis of the deposited data

How the results depend on the processing

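No paired analysis was possible because the columns hold 1 mean per genotype, and for the same reason no differentiation could be left out. A DKO minimum of 4 gave 395 sites with 15 loci holding 30 of them, and a minimum of 5 gave 95 sites with 2 loci holding 4 and an intergenic share of 66.3%. A looser cut-off on the difference gave 412 sites with 14 loci holding 28. A difference of 2 gave 80 sites, 1 locus holding 2, and 93.8% over 5 kb from a TSS. Counted from protein-coding TSSs alone, that share was 91.6%. Chains of 250 kb and 1 Mb, added after the data were seen, gave 10 loci with 26 sites and 29 loci with 71 sites. In windows of 500 bp the Tead and Sox shares were 36.3% and 31.6%, against 26.0% and 19.5% of comparison sites. Over 5 kb from a TSS they were 36.7% and 30.3%, against 30.2% and 24.2%. Over all settings the share over 5 kb from a TSS ran from 86.3% to 93.8%, while the number of sites and loci depended on the cut-offs. Centring the difference, which gave 261 sites, and including chromosomes X and Y left the other values within their ranges. The 10 Mb window of chromosome 6 from 70 to 80 Mb had a median difference of -1.24 and held 58 lost and 0 gained sites. Without it, 0.946% of the sites beyond 50 kb of a gained site were strongly lost, and 0.951% of those beyond 500 kb.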

Other observations

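Of the 215 gained sites, 23 shared their nearest gene with a strongly lost site. The same share over all autosomal sites was not computed, so no excess can be read from this count. Of the 195 gained sites with a listed site outside the 215 within 50 kb, 13 had a strongly lost one among these. This too was not counted around other sites. At Nr5a2 and Foxd3, each with 1 gained site, no site met the mirrored rule, and the other sites differed by -3.88 to 0.98 (24 sites) and by -1.03 to 1.39 (16 sites).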
